A study of Homo sapiens with 60 samples.

Results

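The cytosolic ribosomal proteins are the protein building blocks of the ribosome that reads mRNA outside the mitochondria. Their mRNAs were followed in human cells in which the integrated stress response was switched on by a small molecule. Members were the genes whose symbol is RPL or RPS followed by a number, with or without a final A, together with RPLP0, RPLP1, RPLP2, RPSA and FAU. No measured value entered that choice, apart from a provision for symbols with several entries that was not needed. The rule found 77 of the 57665 deposited genes, 46 of the large and 31 of the small subunit, spread over 21 chromosomes. All 77 passed the filter on low counts, which kept 18040 genes.

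The cells were U2OS, an established human osteosarcoma line, and every culture, the untreated ones included, stably carried Dmr-PERK, a fusion of the kinase domain of mouse PERK to the dimerization domain DmrB. PERK is the endoplasmic reticulum kinase that phosphorylates the initiation factor eIF2 alpha, and the ligand AP20187 (the dimerizer) pairs the fusion proteins and so activates them. All samples carried the genotype label WT. The groups were untreated set 1 and untreated set 2, both labelled 0 h, and cells given dimerizer at 0.01, 0.2 or 3 nM and collected at 6 times (1, 2, 4, 8, 16 and 24 h), with 3 libraries in each of the 20 groups. The middle dose is 195 pM in the sample labels and is written as 0.2 nM here, the rounded form of the design text, which describes the doses as chosen for a minimal, a partial and the strongest loss of protein synthesis. The promoter of the fusion, and whether the line is 1 clone, are not given in the sources used here. The questions were how ribosomal protein mRNAs moved with the length of the signal and with its strength.

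Total counts were 5598803 to 10367667 in the 39 libraries of untreated set 1, 0.01 nM and 0.2 nM, where the lowest count of any member in any library was 731 (RPL36) and the median 3646. They were 20713981 to 28436445 in the 21 libraries of untreated set 2 and 3 nM, where the lowest member count was 2751 (RPL39) and the median 11627, so counting error was small for every member. Within groups the median coefficient of variation of the members ran from 1.30% to 4.34%, except at 0.2 nM and 24 h, where it was 7.62% and replicate 2 was the highest library. The labels did not say whether replicates were separate cultures, so p-values measure only the spread between these libraries, which may be technical. At 3 nM and 24 h all 6 landmark targets of the pathway exceeded their untreated levels, among them TRIB3 by 4.49 and ASNS by 3.16 on the log2 scale. At 0.01 nM and 24 h the landmark DDIT3 was lower than in untreated cells (-0.90). CHAC1 (1.97), ASNS (1.82), TRIB3 (1.11) and SESN2 (0.68) were higher there. The 7 mesenchymal markers were abundant: they summed to 3719 to 3773 TPM (a length-corrected share of the library, on a scale with the same total in every library) at 3 nM and 24 h, against 8893 to 9192 TPM in untreated set 1 and 8531 to 8599 TPM in set 2, with 6 of 7 lower and 1 higher. Over all libraries the 7 epithelial markers summed to 9.96 to 29.6 TPM, the 5 endothelial ones to 0.337 to 3.77 TPM and the 6 of blood and immune cells to 0 to 2.00 TPM, with no marker listed at 0 throughout. The part of these shifts in the results was not tested.

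Ribosomal proteins are made in near equal numbers, since each ribosome holds 1 copy of almost every one, and those made in excess are rapidly destroyed. In vertebrates their mRNAs begin with a C followed by a run of pyrimidines, the 5' terminal oligopyrimidine (TOP) motif, through which mTORC1 and the RNA-binding protein LARP1 control their translation and stability together. They are also among the most abundant mRNAs of growing cells.

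Most annotated start sites of the members carry such a run. A start site entry was found in RefSeq (GRCh38.p14) for 62 of the 77 members. Where a gene had several entries, the entry with the longest run was used, for members and for all genes alike. That choice favours pyrimidines at the first base in both. A run of at least 5 letters that are each C or T, read on the transcribed strand only and beginning at the first transcribed base, was present in 47 of the 62 (75.8%) and in 6.50% of all 27305 genes with an entry. The first transcribed base was C in 80.6% of these members, against 17.7% of all genes, and a run of that length began within 10 bases of the start in 98.4%, against 48.6%. The windows below hold the 10 bases before the annotated start and the 20 bases from it on, with the run at the start in capitals. They are shown for 4 members with large rises and 4 with large falls at 3 nM and 24 h. These were chosen after their values were seen. Members without a run of at least 5 at the start, or on a chromosome left out of the windows, were not eligible. Every window shown thus holds a run by choice. RPL12 is at chr9:127451387-127451416 on the minus strand, RPL26 at chr17:8383174-8383203 on the minus strand, RPS18 at chr6:33272065-33272094 on the plus strand and RPS12 at chr6:132814559-132814588 on the plus strand. Of the members with large falls, RPL7A is at chr9:133348208-133348237 on the plus strand, RPL41 at chr12:56116623-56116652 on the plus strand, RPL31 at chr2:101002279-101002308 on the plus strand and RPS25 at chr11:119018324-119018353 on the minus strand.
RPL12: cgatttccggCCTCTCggctttcggctcgg
RPL26: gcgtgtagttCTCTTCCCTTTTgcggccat
RPS18: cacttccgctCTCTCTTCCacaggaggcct
RPS12: cggatgaggcCTCTTTCCCTgccgccgccg
RPL7A: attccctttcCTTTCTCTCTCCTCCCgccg
RPL41: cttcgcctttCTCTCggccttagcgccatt
RPL31: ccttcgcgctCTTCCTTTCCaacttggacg
RPS25: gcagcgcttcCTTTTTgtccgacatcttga

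The members were abundant. Averaged over all 60 libraries, their levels ran from 454 to 4522 TPM, with a median of 1439 TPM. RPL41, the shortest member at 25 residues, was the highest at 4522 TPM, followed by RPL8 (3369 TPM), which lies near the site where peptide bonds are made, RPL4 (3266 TPM), RPS29 (3237 TPM) and RPLP0 (3183 TPM). The lowest were RPL22 (454 TPM), RPL36 (499 TPM), RPL9 (524 TPM), RPS26 (612 TPM) and RPL21 (633 TPM). The place of RPL9 is uncertain, since reads it shares with its pseudogenes were divided by estimation, as given below. These levels are shares of the RNA in a library, and in bulk samples fewer cells of a kind and less RNA per cell cannot be told apart.

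As a share of all TPM, the 77 members were lowest at 2 or 4 h and highest at 16 or 24 h at every dose. At 0.01 nM they took 11.8%, 11.6%, 12%, 12.2%, 13.4% and 12.9% of TPM at 1, 2, 4, 8, 16 and 24 h. At 0.2 nM the shares were 11.6%, 11.2%, 11.1%, 11.8%, 13.7% and 14.6%, and at 3 nM 12.5%, 12.4%, 11.4%, 12%, 14.9% and 14.6%. The lowest share thus stood at 2 h at the low dose and at 4 h at the other doses. Untreated set 1 stood at 12.3% ± 0.300 and untreated set 2 at 13.4% ± 0.0241 (SD, n = 3 each). Mitochondrially encoded RNAs of every kind took 13.6%, 12.4% and 9.69% of TPM at 0.01, 0.2 and 3 nM after 24 h. They took 22.5% in untreated set 1 and 12.5% in set 2. With only the mitochondrially encoded mRNAs left out, both untreated sets were close (14.9% ± 0.316 and 14.8% ± 0.036). On that basis the members fell to 12.9% at 2 h at 0.01 nM, 12.2% at 4 h at 0.2 nM and 12.4% at 4 h at 3 nM. At 24 h they took 14.4%, 16.0% and 15.8% at 0.01, 0.2 and 3 nM. The 3 replicates at 24 h took 12.7%, 13.3% and 12.7% of all TPM at 0.01 nM, 14.0%, 15.2% and 14.4% at 0.2 nM and 14.7%, 14.5% and 14.4% at 3 nM. On all TPM, the 3 nM and 0.2 nM libraries at 24 h thus all lay above every untreated library of both sets. The 0.01 nM libraries lay above set 1 and below set 2. With the mitochondrially encoded mRNAs left out, the higher doses stayed above, while the 0.01 nM libraries took 14.20%, 14.76% and 14.15%. Set 1 then ran from 14.59% to 15.22% and set 2 from 14.81% to 14.88%.

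**Figure D1:**
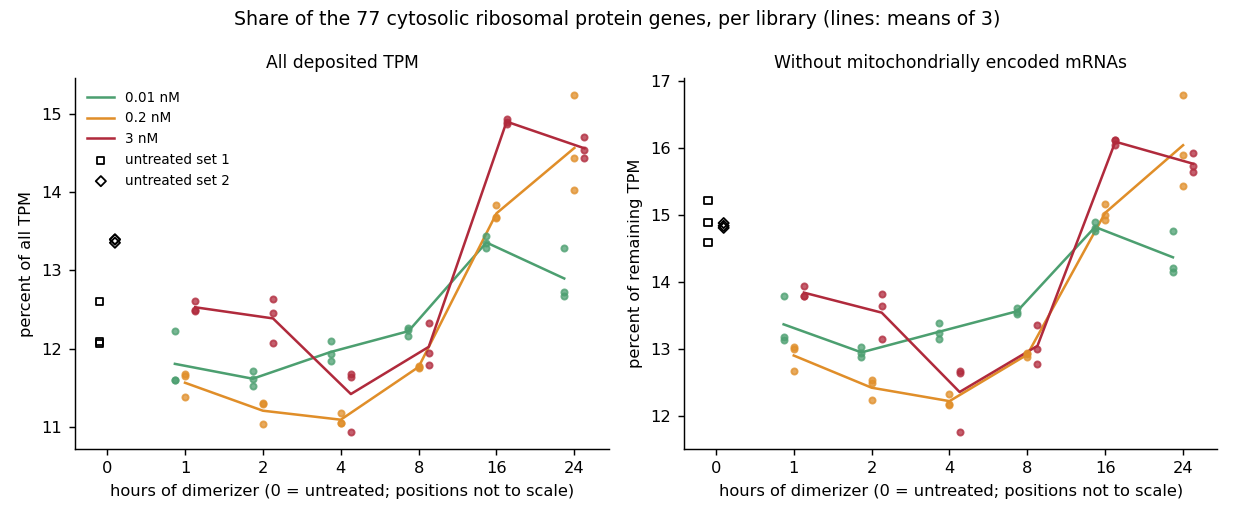
Share of TPM (percent, y axis) taken by the 77 ribosomal protein genes in each library, for the untreated sets and for each dose over time (hours, x axis), with all TPM counted and with mitochondrially encoded mRNAs left out. At 3 nM the mean share of all TPM was 11.4% at 4 h and 14.9% at 16 h. Untreated sets 1 and 2 stood at 12.3% and 13.4% of all TPM, and at 14.9% and 14.8% with mitochondrially encoded mRNAs left out.

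Within the first hour nearly every member fell at every dose. Against untreated cells, 77 of 77 were lower at 0.01 nM, 77 at 0.2 nM and 76 at 3 nM, and 0 were higher at any dose. Over all genes tested, 15.5%, 19% and 21.0% were called lower at these doses, and 12.6%, 16.2% and 22.6% higher. Here and below, a call is an adjusted p under 0.05 in edgeR's quasi-likelihood test, with p-values adjusted over all 18040 genes within a comparison, and the untreated value is the mean of both set means. The median member changed by -0.23, -0.33 and -0.24 on the log2 scale at 0.01, 0.2 and 3 nM, against -0.00, 0.01 and 0.03 over all genes. The 1 member that was not called at 3 nM was RPL21 (-0.03, edgeR adjusted p = 0.58).

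The fall at 1 h was shallow and even. FAU, a precursor from which the small subunit protein RPS30 is cut, had 189.8, 186 and 185 CPM (counts scaled to a common library total with trimmed-mean (TMM) factors) at 3 nM and 1 h, against 276, 262 and 257 in untreated set 1 and 232, 226 and 216 in untreated set 2. All 3 treated libraries lay below all 6 untreated ones, and its log2 fold change was -0.38 (edgeR adjusted p = 1.55e-12, SE 0.0375). RPL5, which with RPL11 forms the particle that restrains MDM2, changed least among the called members together with RPL3 and RPL12. It had 642, 621 and 616 CPM at 3 nM and 1 h, against 738, 709 and 708 in untreated set 1 and 705, 691 and 697 in set 2 (log2 fold change -0.18). Again the treated libraries were below every untreated one. Against untreated set 1 alone 77, 77 and 76 members were called lower at 0.01, 0.2 and 3 nM, and against set 2 alone 63, 77 and 76. On the TPM scale, where the median of all genes moved by 0.18 at 3 nM and 1 h, 21 members were called lower there, against 76 on the count scale. Untreated libraries labelled 1 h were not analysed here, so the time since the addition, or the handling, and the drug cannot be told apart.

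The low levels lasted through 8 h. At 2 h 77, 77 and 75 members were lower at 0.01, 0.2 and 3 nM (background 22%, 22.4% and 23.1% lower), and 0 were higher (background 21.5%, 22.4% and 27.4%). At 4 h the numbers lower were 76, 77 and 75 (background 26.1%, 29.2% and 31.9%), with 0 higher (25.9%, 30.1% and 34.9%). At 8 h they were 64, 74 and 71 (26.0%, 30.8% and 34.0%), with 0, 0 and 1 higher (27.8%, 32.8% and 38.5%). The median member stood at -0.19, -0.33 and -0.24 at 4 h and at -0.14, -0.25 and -0.22 at 8 h. The 1 member called higher at 8 h and 3 nM was RPL10A (0.07, edgeR adjusted p = 0.0157).

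Between 1 and 8 h the members spread apart at 3 nM. RPL7A, a large subunit protein whose gene (chromosome 9, 133348214 to 133351426, GRCh38, plus strand) also holds 4 small nucleolar RNAs in its introns, had 952, 953 and 964 CPM at 3 nM and 1 h and 745, 697 and 706 at 4 h. In untreated set 1 it had 1203, 1158 and 1129 CPM and in set 2 1107, 1098 and 1085. The 4 h libraries lay below all 1 h libraries, which lay below all untreated ones. Its log2 fold change at 4 h was -0.66 (edgeR adjusted p = 7.99e-27, SE 0.0308), the largest fall of any member, and it fell by 0.37 from 2 to 4 h (edgeR adjusted p = 1.11e-13), a step that uses no untreated library. From 2 to 4 h 28 members fell and 1 rose (background 24.8% and 25.4%). Replicate 1 at 3 nM and 4 h stood apart from its group, with a chi-square per degree of freedom of 21.1 and 21.9 against replicates 2 and 3, which had 1.68 against each other. Its member share was 10.9% of TPM, against 11.7% and 11.6% in the other libraries of the group. At 3 nM and 2 h replicate 3 had 9.03 and 7.71 against its group. The 28 falls became 42 without replicate 1 of the 4 h group, 18 without its replicate 2, 17 without its replicate 3 and 23 without replicate 3 of the 2 h group. Against untreated cells, 76, 74 and 75 members stayed called lower at 4 h without replicates 1, 2 and 3 of that group.

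The other members with large falls at 4 h were RPS15 (-0.47) and RPS26 (-0.42) of the small subunit, RPS25 (-0.43), which some viral mRNAs need to start translation, and RPL17 (-0.43), RPL24 (-0.43), RPL23 (-0.43) and RPL23A (-0.40) of the large subunit. RPS15 had 256, 229 and 230.1 CPM at 3 nM and 4 h, against 372, 346 and 351 in untreated set 1 and 311, 310.2 and 298 in set 2 (edgeR adjusted p = 5.21e-17). The treated libraries did not overlap either untreated set, although the sets themselves differed. RPL12 (-0.12), RPL8 (-0.12) and RPS18 (-0.10), which stood high at 24 h, fell by less at 4 h. At 4 h the count at 3 nM fell to 32 members with at least a 1.2-fold change, and at 0.01 nM to 2.

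The direction turned between 8 and 16 h. At 3 nM all 77 members rose over that step (background 27.3% higher and 26.9% lower), with a median of 0.41 on the log2 scale against -0.00 over all genes and a range from 0.11 for RPL7A to 0.70 for FAU. At 0.2 nM 71 rose and 0 fell (16.5% and 16.8%, median 0.25), and at 0.01 nM 57 rose and 0 fell (15.8% and 17.7%, median 0.14). These steps use no untreated library, and within a dose all libraries were of like depth. No untreated libraries of these times were analysed, so time in culture and the drug cannot be told apart in these steps either. Without replicate 3 throughout, the count at 0.01 nM was 31 in place of 57, and only 2 members passed a 1.2-fold change there.

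Among the largest steps from 8 to 16 h at 3 nM were those of FAU, RPL26 and RPL8. FAU had 322, 325 and 314 CPM at 16 h, against 193, 198 and 200.1 at 8 h (log2 fold change 0.70, edgeR adjusted p = 1.1e-21, SE 0.0415). RPL26, which lies by the exit of the peptide tunnel and carries the UFM1 modification of ribosomes at the endoplasmic reticulum, had 572, 588 and 569.6 CPM at 16 h, against 349, 369 and 398 at 8 h (log2 fold change 0.63, edgeR adjusted p = 1.29e-20, SE 0.0398). In both, every 16 h library lay far above every 8 h library. The smallest steps were those of RPL7A (0.11), RPL3 (0.12), RPL10A (0.14) and RPL23A (0.16). At 0.2 nM the 6 members that did not pass the test were RPL23A, RPL7A, RPL3, RPL15, RPL10A and RPS27, of which RPL7A had 744, 732 and 777 CPM at 16 h, against 733, 718 and 727 at 8 h.

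From 16 to 24 h the changes were small, and their counts depended on single libraries. At 3 nM 28 members fell and 0 rose (background 11.5% and 9.62%, median -0.05), led by RPS26 (-0.26) and RPL10A (-0.23). At 0.2 nM 22 rose and 0 fell (4.16% and 6.05%, median 0.08), led by RPS27 (0.23) and RPS25 (0.20). At 0.01 nM 39 fell and 0 rose (13.2% and 10.4%, median -0.10). At 0.2 nM the 22 became 2 without replicate 2 of the 24 h group, the highest library, 44 without its replicate 1, and 11 and 12 without replicates 1 and 2 of the 16 h group. At 3 nM the 28 became 16 without replicate 2 at 16 h or replicate 3 at 24 h, and at 0.01 nM the 39 became 25 without replicate 1 at 16 h and 20 without replicate 3 at 24 h. At any dose 0 members passed a 1.2-fold change over this step in the direction given.

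**Figure D2:**
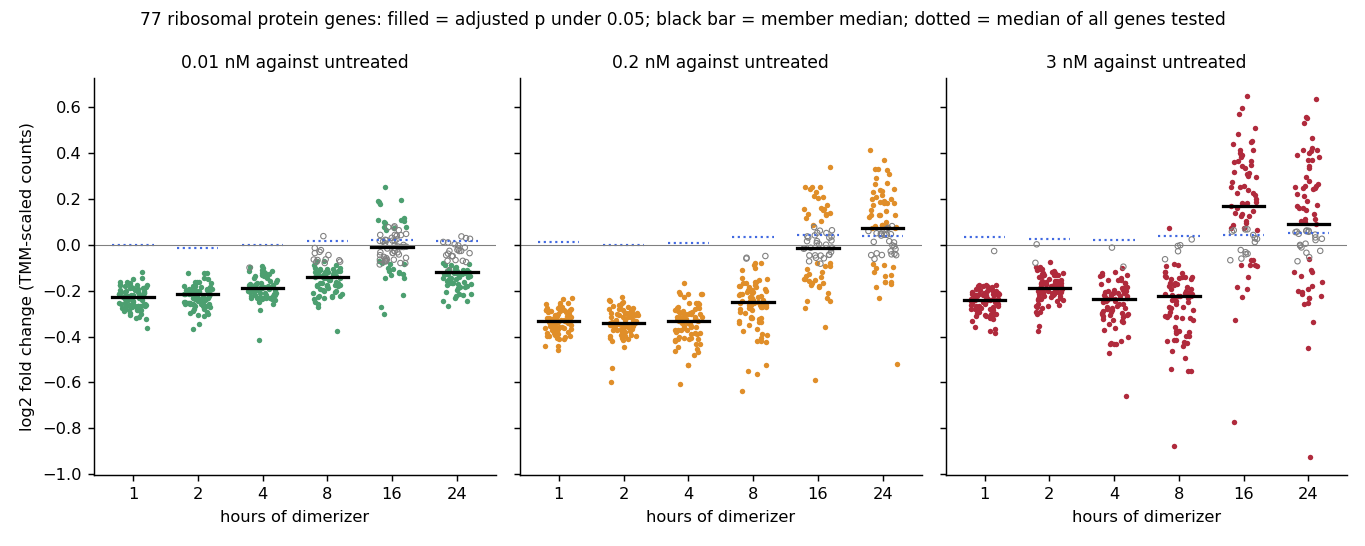
Log2 fold change against untreated cells (y axis) of each of the 77 members at each dose and time in hours (x axis). Filled points passed the test, the black bar is the median of the members and the dotted line the median of all genes, and at 3 nM that member median was -0.22 at 8 h and 0.17 at 16 h.

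At 16 h against untreated cells, the members were split. At 3 nM 51 were higher and 12 lower (66.2% and 15.6% of members, against 40.6% and 35.5% of all genes, median 0.17). At 0.2 nM 21 were higher and 25 lower (27.3% and 32.5%, against 34.9% and 31.5%), and at 0.01 nM 15 were higher and 16 lower (19.5% and 20.8%, against 26.9% and 25.8%). At those lower doses the shares were near or under the background. RPL8 was the highest at 3 nM (0.65), and FAU (0.20) and RPL35 (0.25) were among the highest at 0.01 nM, where RPL3 (-0.30) and RPL13A (-0.27) were the lowest.

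After 24 h at 3 nM, 39 members were higher and 19 lower than in untreated cells, which is 50.6% and 24.7% of the members against 41.1% and 36.0% of all genes. Their median change was 0.09, against 0.05 over all genes, and single members ran from -0.92 to 0.63. The share called in each direction was thus not far from the background. In the large subunit 24 of 46 were higher and 13 lower (median 0.10), and in the small subunit 15 of 31 were higher and 6 lower (median 0.06). Against untreated set 1 alone 35 were higher and 27 lower (median 0.02), against set 2 alone, which has the depth of the 3 nM libraries, 50 and 14 (median 0.16), and on the TPM scale 55 and 14. At 1.2-fold or more, 19 were higher and 3 lower.

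The largest rise at 3 nM and 24 h was that of RPL12 (chromosome 9, 127447674 to 127451405, GRCh38, minus strand), a protein at the base of the stalk where elongation factors dock. It had 899, 904 and 892 CPM, against 607, 587 and 577 in untreated set 1 and 569.8, 568 and 564 in set 2. All treated libraries lay above all untreated ones, and set 1 lay slightly above set 2. The log2 fold change was 0.63 (edgeR adjusted p = 7.54e-29, SE 0.0276). RPL8 had 2599, 2577 and 2472 CPM, against 1841, 1807 and 1757 in set 1 and 1707, 1650.4 and 1633 in set 2 (log2 fold change 0.56, edgeR adjusted p = 6.44e-25, SE 0.0294). RPL26 had 578, 569 and 564 CPM, against 421, 411 and 371 in set 1 and 379, 379 and 372 in set 2 (log2 fold change 0.55, edgeR adjusted p = 9.51e-22, SE 0.0343). For both, too, the treated libraries were all above the untreated ones, by more than the range within any of these groups.

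In the small subunit the largest rise at 3 nM and 24 h was that of RPS18 (0.53 ± 0.0313, log2 fold change and SE), a protein of the head. RPS12 (0.42 ± 0.0298) and RPS27A (0.41 ± 0.0312) followed, with RPL9 (0.47 ± 0.0436) and RPL36 (0.41 ± 0.032) completing the 8 largest rises. The value of RPL9, and so its place among these rises, is uncertain because of reads shared with its pseudogenes, as given below. RPS27A is made as a fusion with ubiquitin and so supplies ubiquitin as well as a ribosomal protein. It had 1091, 1083 and 1074 CPM at 3 nM and 24 h, against 880.1, 839 and 790.3 in untreated set 1 and 798, 789.5 and 779 in set 2, and the treated libraries stood above all others. FAU, made as a fusion with a ubiquitin-like protein, rose by 0.38, and RPS6, the target of the S6 kinases, by 0.41. The 3 stalk proteins all rose: RPLP0 by 0.28, RPLP1 by 0.25 and RPLP2 by 0.19. RPLP0 had 2793, 2785 and 2686 CPM, against 2405, 2451 and 2392 in set 1 and 2139.7, 2140.2 and 2138 in set 2, so that the treated libraries lay above both sets, which themselves did not overlap.

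RPL7A fell furthest at 3 nM and 24 h. It had 606, 607 and 573 CPM, against 1203, 1158 and 1129 in untreated set 1 and 1107, 1098 and 1085 in set 2 (log2 fold change -0.92, edgeR adjusted p = 4.09e-34, SE 0.0313). All 3 treated libraries lay far below every untreated library. RPL23A (chromosome 17, 28719393 to 28724359, GRCh38, plus strand), which lies at the tunnel exit where the signal recognition particle docks, had 312, 298 and 295 CPM, against 462, 445 and 417 in set 1 and 393, 371 and 386 in set 2 (log2 fold change -0.45, edgeR adjusted p = 2.43e-19, SE 0.0316). RPL41 had 860.1, 845 and 829 CPM, against 1179, 1142 and 1099 in set 1 and 1007, 986 and 1002 in set 2 (log2 fold change -0.34, edgeR adjusted p = 2.22e-14, SE 0.0318). In both, the treated libraries lay below every untreated library, and set 1 lay above set 2. Reads shared with its pseudogenes make the values of RPL23A uncertain, as given below. The 8 largest falls also held RPL31 (-0.26 ± 0.0323, log2 fold change and SE), RPS25 (-0.26 ± 0.0392), RPL23 (-0.23 ± 0.0336), a protein that can bind MDM2, and RPL29 (-0.23 ± 0.0304).

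**Figure D3:**
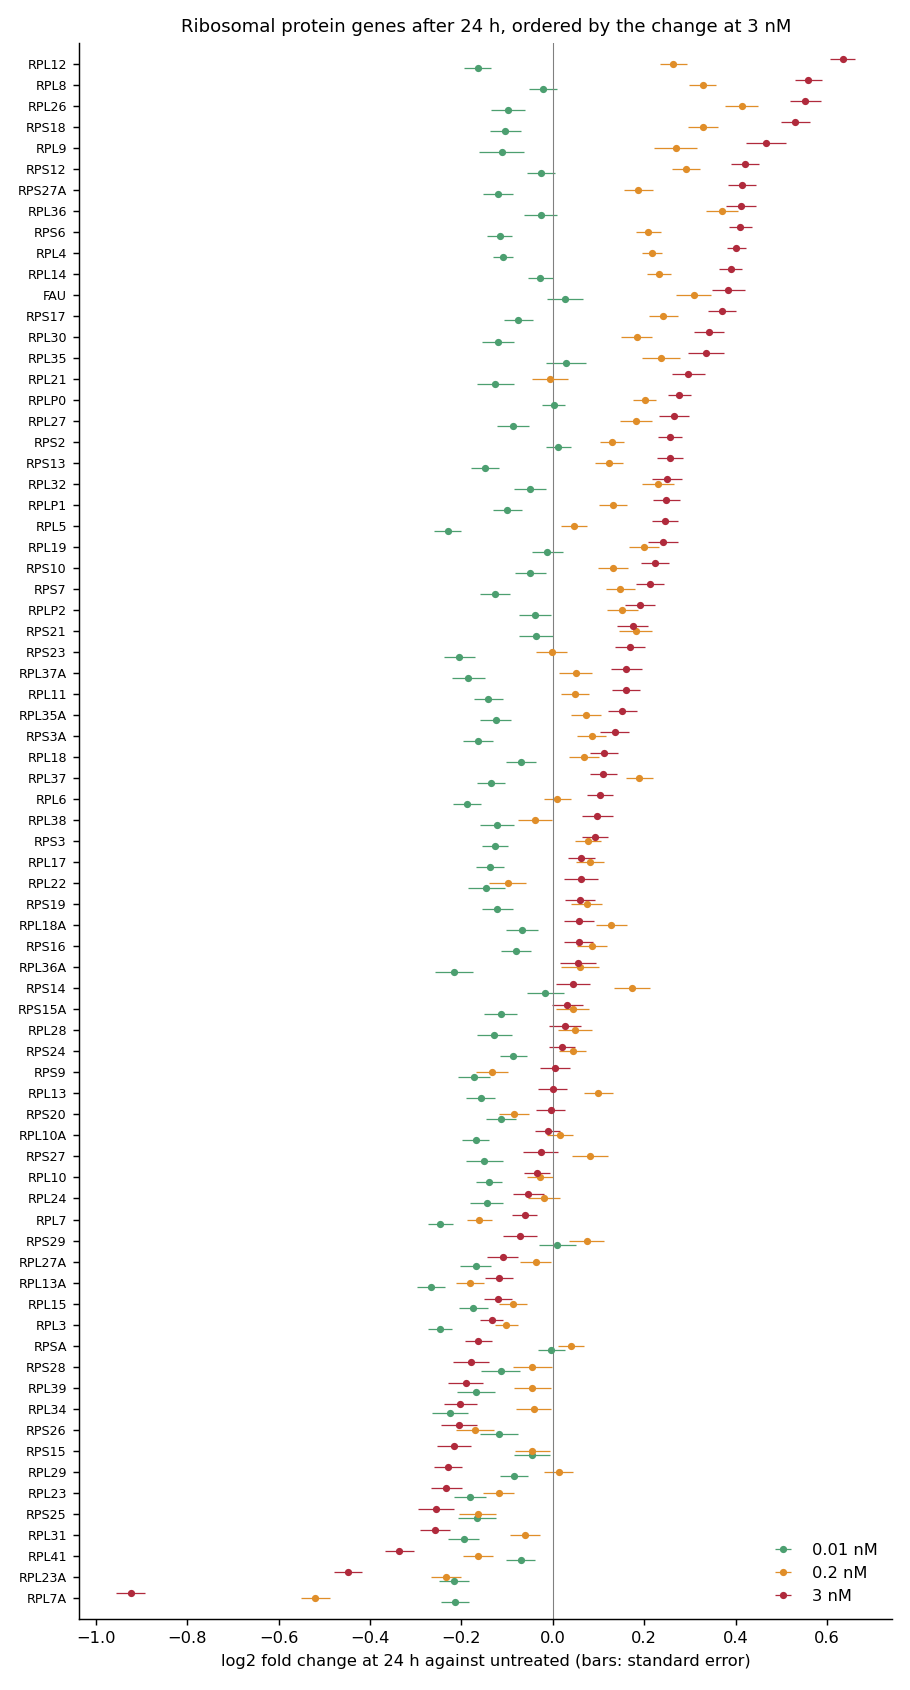
Log2 fold change against untreated cells after 24 h (x axis, with SE as bars) of 74 of the 77 members (y axis) at 0.01, 0.2 and 3 nM, ordered by the value at 3 nM. RPL12 (0.63 at 3 nM) and RPL7A (-0.92 at 3 nM) are the ends of the order.

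After 24 h at 0.2 nM, 38 members were higher and 14 lower than in untreated cells (49.4% and 18.2%, against 34.3% and 31.2% of all genes), with a median of 0.07 against 0.04. In the large subunit 20 were higher and 9 lower, and in the small subunit 18 and 5. Among the largest rises were those of RPL26 (0.41), RPL36 (0.37), RPS18 (0.33), RPL8 (0.33), FAU (0.31), RPS12 (0.29) and RPL9 (0.27). RPL26 had 479, 557 and 516 CPM at 0.2 nM, against 421, 411 and 371 in untreated set 1 and 379, 379 and 372 in set 2 (log2 fold change 0.41, edgeR adjusted p = 1.82e-15, SE 0.0356). The treated libraries were above all untreated ones, and replicate 2 was the highest of them. Among the largest falls were those of RPL7A (-0.52), RPL23A (-0.23), RPL13A (-0.18), RPS26 (-0.17), RPS25 (-0.16), RPL41 (-0.16) and RPL7 (-0.16). Of these, RPL7A and RPL23A passed under every alternative tried. None of those alternatives dealt with reads that RPL9 and RPL23A share with their pseudogenes, which make the values of both uncertain, as given below. RPS26, RPS25, RPL41 and RPL7 did not pass with library totals in place of TMM, RPL13A, RPS26, RPS25 and RPL7 did not on the TPM scale, RPS26 and RPS25 did not without replicate 1 in every group, RPS26 did not against set 1 alone and RPL41 not against set 2 alone. RPL7A had 746, 829.9 and 788 CPM, well below the 1203, 1158 and 1129 of set 1 and the 1107, 1098 and 1085 of set 2 (log2 fold change -0.52, edgeR adjusted p = 6.61e-22, SE 0.0312).

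The count at 0.2 nM leaned on 1 library and on the scale. Without replicate 2 of that group 26 members were higher and 23 lower, with a median of 0.01. Without replicate 1 of that group 45 were higher and 8 lower. Against untreated set 1 alone, of like depth, 24 were higher (median 0.00), and on the TPM scale 59 were higher and 3 lower.

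After 24 h at 0.01 nM, 54 members were lower and 0 higher (70.1% and 0% of members, against 22.2% and 21.0% of all genes), with a median of -0.12 against 0.02 over all genes. The falls were small. The largest were those of RPL13A (-0.27), RPL3 (-0.25), RPL7 (-0.25), RPL5 (-0.23), RPL34 (-0.23), RPL23A (-0.22), RPL36A (-0.22) and RPL7A (-0.21). RPL13A, known also as a part of the GAIT complex that holds back the translation of inflammatory mRNAs, had 1077, 1149 and 1054 CPM, against 1415, 1401 and 1302 in untreated set 1 and 1247, 1272 and 1265 in set 2 (log2 fold change -0.27, edgeR adjusted p = 1.96e-10, SE 0.0311). RPL5 had 588, 627 and 596 CPM, against 738, 709 and 708 in set 1 and 705, 691 and 697 in set 2 (log2 fold change -0.23, edgeR adjusted p = 3.01e-09, SE 0.0295). In both, all treated libraries lay below all untreated ones. The count depended on the control and on the scale: against untreated set 2 alone 27 were lower and 7 higher, with library totals in place of TMM 12 and 14, and on the TPM scale, where the median of all genes moved by 0.14, 10 and 16. The mitochondrial share of TPM, which is part of every such total, was 13.6% at 0.01 nM after 24 h, 22.5% in set 1 and 12.5% in set 2, and its part in the result was not tested.

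The doses shared their untreated libraries, so values against untreated are given side by side. RPL12 changed by -0.16, 0.26 and 0.63 at 0.01, 0.2 and 3 nM after 24 h, RPL26 by -0.10, 0.41 and 0.55, and RPS18 by -0.10, 0.33 and 0.53. RPL5 changed by -0.23, 0.05 and 0.25, and its partner RPL11 by -0.14, 0.05 and 0.16. The middle values of RPL5 and RPL11 did not pass the test. Beside RPL12, RPL26, RPS18, RPL5 and RPL11, the members called higher at 3 nM and lower at 0.01 nM were RPS27A, RPS6, RPL4, RPL30, RPL21, RPL27, RPS13, RPLP1, RPS7, RPS23, RPL37A, RPL35A, RPS3A, RPL37, RPL6, RPL38 and RPS3. How many members were called lower at 0.01 nM depended on the control and on the scale, as given above. RPL27 was close to the threshold there (-0.09, edgeR adjusted p = 0.0407). The share of all genes called in opposite directions was not counted. RPL7A was lower at every dose (-0.21, -0.52 and -0.92).

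**Figure D4:**
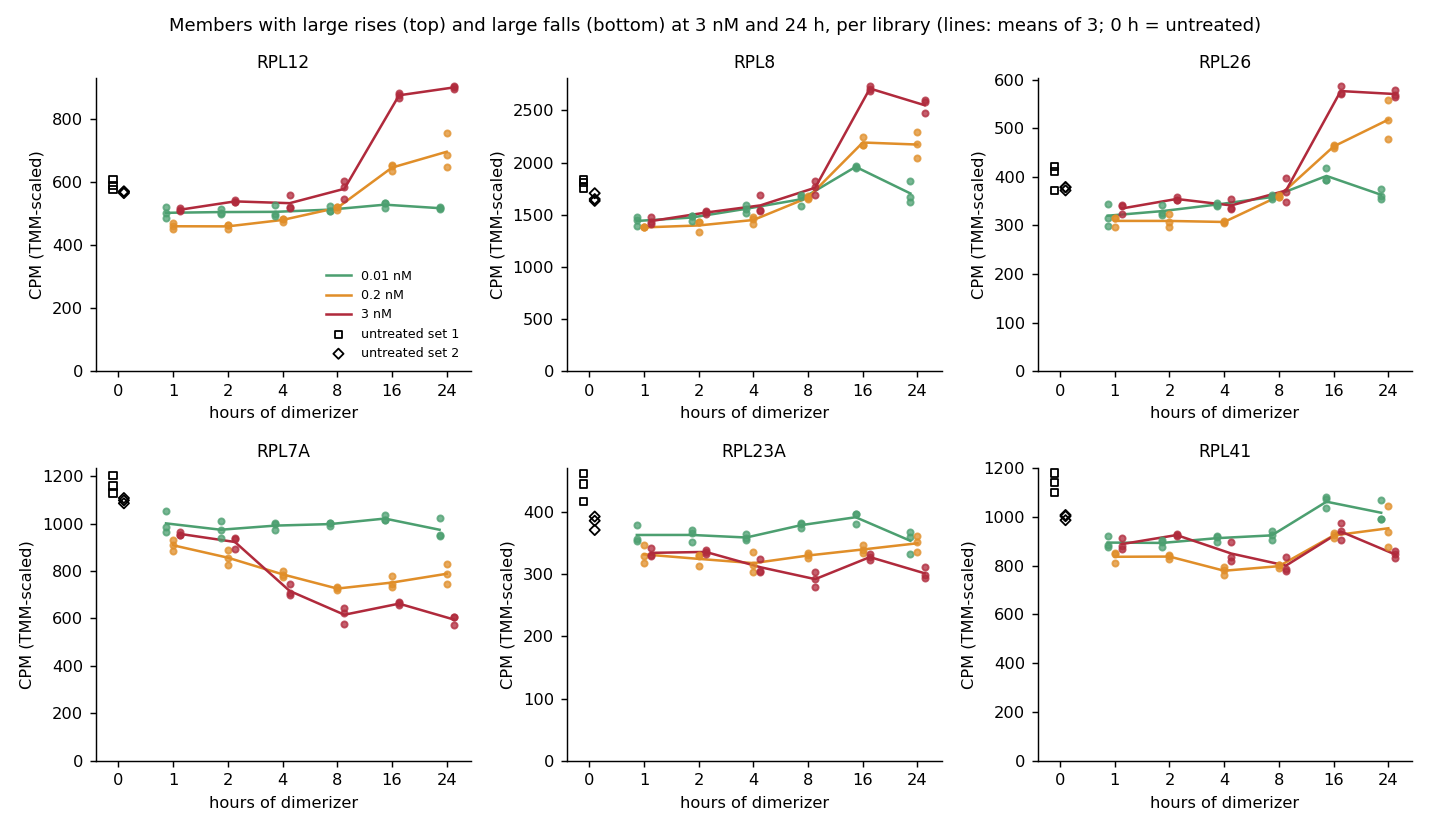
TMM-scaled CPM (y axis) of 6 members in each library over time in hours (x axis), with the untreated sets at the left and the doses in separate colours. RPL12, RPL8 and RPL26 end above the untreated sets at 3 nM, and RPL7A, RPL23A and RPL41 end below them.

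Set directly against each other at the same time, the doses differed more after 24 h than after 1 h. At 1 h 0.2 nM against 0.01 nM gave 0 members higher and 2 lower (background 0.344% and 0.416%, median -0.10). At 2 h 0 were higher and 31 lower (5.53% and 4.36%), at 4 h 0 and 63 (13.6% and 10.3%, median -0.15) and at 8 h 1 and 41 (18.9% and 17.8%). At 16 h 15 were higher and 12 lower (23.5% and 21.4%), and at 24 h 62 were higher and 2 lower (26.9% and 24.6%, median 0.19 against -0.00 over all genes). The calls were thus mostly towards lower levels at the middle dose from 2 to 8 h and mostly towards higher ones at 24 h, while at 1 h few members passed. At 24 h RPL26 had 479, 557 and 516 CPM at 0.2 nM, against 354, 375 and 361 at 0.01 nM (log2 fold change 0.51, edgeR adjusted p = 8.89e-16, SE 0.0424). The middle dose lay above the low dose in every library. The members that were lower at 0.2 nM were RPL7A, with 746, 829.9 and 788 CPM at 0.2 nM, against 946, 1023 and 952 at 0.01 nM, and RPL41 (-0.09, edgeR adjusted p = 0.0295).

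The high dose against the middle dose crosses the difference in depth. At 1 h 34 members were higher and 0 lower at 3 nM (background 15.9% and 11.4%), at 2 h 59 and 0 (20.9% and 15.2%), at 4 h 41 and 2 (21.3% and 15.5%) and at 8 h 15 and 12 (23.4% and 14.8%). At 16 h 59 were higher and 1 lower (26.9% and 18.8%, median 0.17), and at 24 h 27 and 17 (30.6% and 25.5%, median 0.04). At 24 h RPL12 had 899, 904 and 892 CPM at 3 nM, against 646, 755 and 684 at 0.2 nM (log2 fold change 0.37, edgeR adjusted p = 8.1e-15, SE 0.0327). RPL7A had 606, 607 and 573 CPM at 3 nM, against 746, 829.9 and 788 at 0.2 nM (log2 fold change -0.40, edgeR adjusted p = 5.2e-15, SE 0.0352). In both genes the libraries of the doses did not overlap. RPL21 (0.30) and RPL8 (0.23) were also higher and RPL29 (-0.24) and RPL23A (-0.21) lower at 3 nM. RPL21 is 1 of the 2 members that were higher in untreated set 2 than in set 1, the other being RPS26, while 54 were lower in set 2 (background 14.9% higher and 14.0% lower, median -0.13).

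The change from 4 to 24 h within a dose does not involve the untreated sets. It raised 24 members at 0.01 nM (background 21.9%), 76 at 0.2 nM (25.6%) and 71 at 3 nM (34.5%), with medians of 0.08, 0.41 and 0.36, and lowered 0, 0 and 1 (23.2%, 26.2% and 33.4%). The member lowered at 3 nM was RPL7A. The change was larger at 0.2 nM than at 0.01 nM in 76 members and smaller in 0 (background 15.2% and 16.0%, median difference 0.34), with RPL7A the only one that did not pass (0.03, edgeR adjusted p = 0.711). The change was larger at 3 nM than at 0.2 nM in 2 members, RPL12 and RPL4, and smaller in 15 (background 19.5% and 16.7%, median difference -0.05). With library totals in place of TMM the number smaller was 45. Without replicate 1 of 0.2 nM at 24 h the number smaller was 32, and without replicate 2 of that group 8.

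The balance of the subunits moved little. The summed TPM of the large subunit over that of the small one was 1.423, 1.416 and 1.384 at 0.01, 0.2 and 3 nM after 24 h, against 1.454 in untreated set 1 and 1.431 in set 2. The SD was 0.006 at 3 nM and 0.003 in set 2 (n = 3 each), so the ratio at 3 nM lay below both sets by more than the spread, which is a description with no test.

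Several features of the genes were set beside the 3 nM change at 24 h as descriptions. Over all genes tested, 41.1% were called higher and 36% lower in that comparison. The annotation places 60 small nucleolar RNAs inside 28 members, and such RNAs are cut from introns to guide the modification of other RNAs. Of these hosts 13 were higher and 9 lower (median 0.06), and of the other 49 members 26 were higher and 10 lower (median 0.10). Among hosts of 4 or more, RPL7A (-0.92), RPL23A (-0.45) and RPL13A (-0.12) fell and RPL4 (0.40) rose. Of the 47 members with a pyrimidine run at the start 25 were higher and 10 lower (median 0.10), and of the 15 with an entry but no such run 7 and 5 (median 0.06). Of the 40 members with proteins of at least the median length, 151 residues, 22 were higher and 9 lower, and of the 37 shorter ones 17 and 10. Each of these groupings thus held members of both directions.

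Processed pseudogenes, copies of mRNAs pasted back into the genome, share sequence with nearly every member, and Salmon divides such reads by estimation. The table held 981 entries named as pseudogenes of 75 members. In untreated set 2 they took a median of 0.03% of the summed counts of a member and its copies, but 72.8% for RPL9, 49.7% for RPL23A, 14.4% for RPS28 and 10.4% for RPS2. With the copies added, the direction at 3 nM and 24 h was kept in 77 of 77 members. The ratio of mean levels of RPL9 changed most, at 0.25 on the log2 scale with the copies and 0.47 without, so the values of RPL9 and RPL23A are uncertain.

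Of ribosomal protein genes outside the rule, RACK1, a scaffold on the head of the small subunit, was higher at 3 nM and 24 h by 0.50 and RPS4X by 0.12.

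Paralogs of ribosomal proteins moved further than the members. Of 8 listed, 7 were tested, of which 5 were higher and 2 lower at 3 nM and 24 h (median 0.79), against 41.1% and 36% of all genes. RPL22L1, the paralog of RPL22, had 519, 529 and 525 TPM at 3 nM and 24 h, against 132, 124 and 122 in untreated set 1 and 133, 127 and 130.3 in set 2. RPL22 itself had 544, 533 and 531 TPM, against 439.9, 456 and 452 in set 1 and 547, 554 and 545 in set 2. The treated libraries lay far above every untreated one for the paralog. Its log2 fold change was 1.96 (edgeR adjusted p = 1.52e-44, SE 0.0409), against 0.06 for RPL22 (edgeR adjusted p = 0.131), and at 0.2 nM it was 1.34. RPL26L1 was higher by 0.92, RPL7L1 by 0.86, RPL10L by 0.79 and RPL39L by 0.51. RPS27L, an inducible relative of RPS27, was lower by 0.57 and RPL36AL by 0.40 on the log2 scale at 3 nM, and RPL36AL had -0.63 at 0.2 nM. RPL36AL had 331, 327 and 326 TPM at 3 nM and 24 h, against 398, 356 and 384 in set 1 and 435, 442 and 439.6 in set 2, below every untreated library. At 0.01 nM 0 paralogs were higher and 3 lower, against 21.0% and 22.2% of all genes.

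**Figure D5:**
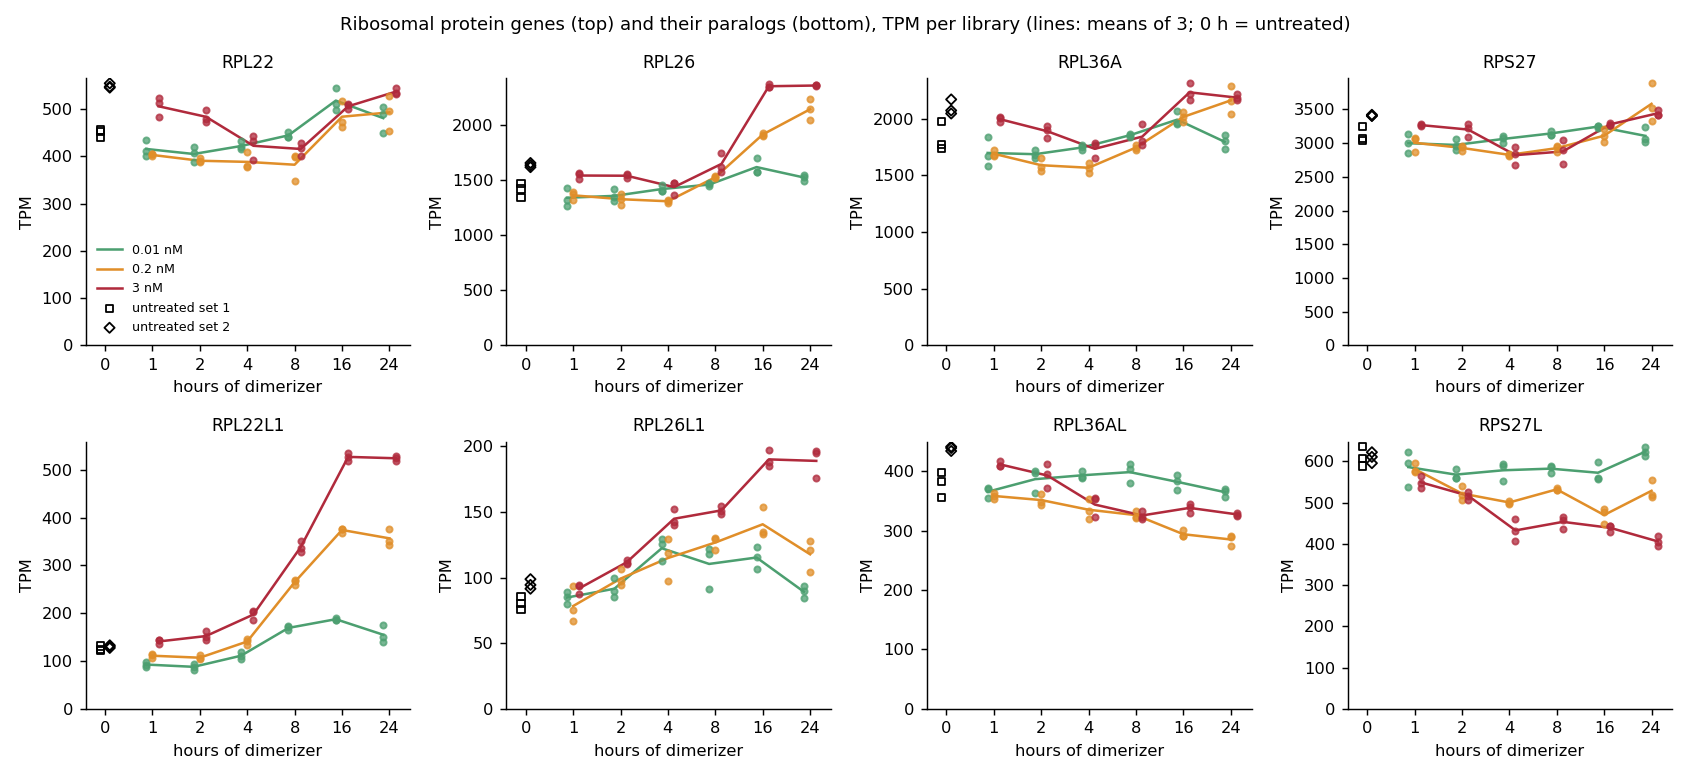
TPM (y axis, linear from 0) of 4 members (top) and their paralogs (bottom) in each library, for the untreated sets at the left and for each dose over time in hours (x axis). At 3 nM and 24 h RPL22L1 lies above the untreated sets, and RPS27L and RPL36AL lie below them.

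Other mRNAs with a 5' TOP motif, which encode translation factors and related proteins, were called in both directions at 3 nM and 24 h, at shares near the background: 7 of 16 were higher and 7 lower (median 0.02; 41.1% and 36% of all genes), with EEF1B2, a subunit of the exchange factor of elongation factor 1, at 0.70, the nucleolar protein NPM1 at 0.68 and COX7C, a subunit of cytochrome oxidase, at -0.62. At 3 nM and 4 h 1 was higher and 14 lower (median -0.17; 34.9% and 31.9% of all genes), and at 0.01 nM and 24 h 1 was higher and 11 lower (median -0.13; 21.0% and 22.2%). The lists of companion genes were chosen with earlier results of these data known.

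Genes whose products handle ribosomal proteins or watch over ribosomes had larger median changes than the members. Over all genes 41.1% were called higher and 36% lower at 3 nM and 24 h. Of 10 chaperones and escorts of ribosomal proteins 8 were higher and 1 lower at 3 nM and 24 h (median 0.84), among them PDCD2L (1.79), PDCD2 (0.89), which escorts RPS2, GRWD1 (0.98), which escorts RPL3, HEATR3 (0.79), which carries RPL5, BCCIP (1.07), which escorts RPL23, and the assembly factor LTV1 (1.19). RPL3 itself had -0.13, RPL5 0.25 and RPL23 -0.23. Of 12 genes of TOP control and the mTORC1 arm 11 were higher and 1 lower (median 0.66). These included the mTORC1 inhibitors SESN2 (2.83) and DDIT4 (2.62), the translation brake EIF4EBP1 (2.19), LARP1 (0.83), LARP4B (0.81) and LARP4 (0.78). At 0.01 nM SESN2 had 0.68, DDIT4 1.35 and EIF4EBP1 1.04.

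All 11 tested factors of ribosome collision and turnover were higher at 3 nM and 24 h (median 0.75), against 41.1% of all genes. They included ZNF598 (1.89), the ligase that marks RPS10 on collided ribosomes, ASCC3 (1.13), the helicase that splits them, LTN1 (1.00), which marks stalled nascent chains, USP10 (0.91), PELO (0.88), EDF1 (0.75) and GCN1 (0.64). The marked protein RPS10 had 0.22 (edgeR adjusted p = 4.76e-09). Of 11 genes of RNA polymerase I, which makes the ribosomal RNA precursor, 9 were higher and 1 lower (median 0.96, against 41.1% and 36% of all genes), with TAF1A at 1.87, POLR1B at 1.75, POLR1E at 1.36, RRN3 at 1.26, TAF1D at 1.25, POLR1C at 0.96 and POLR1A at 0.90. At 0.2 nM the medians of the escorts, the TOP and mTORC1 genes, the collision factors and the polymerase I genes were 0.47, 0.39, 0.49 and 0.57, and at 0.01 nM 0.01, 0.25, 0.12 and 0.05.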

How the data were processed

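RNA was sequenced from 60 libraries in 20 groups of 3. The authors deposited a table of estimated counts per gene and a table of TPM per gene, which also paired identifiers with symbols. The submitters' processing notes name Salmon 0.9.1, FastQC 0.11.5 and the build GRCh38 without their roles, and the annotation release is not given in the sources used here. Positions and small nucleolar RNAs were taken from GENCODE release 29 on GRCh38, and start site sequences from RefSeq on GRCh38.p14. Estimated counts, of which 77.8% were whole within 1e-06, were rounded. Library preparation was strand-specific, per the labels' protocols.

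Counts of all genes were fitted with edgeR 4.0.16 (R 4.3.3; TMM, filterByExpr, quasi-likelihood F test) with 20 group means, no other covariate and 40 residual degrees of freedom, in 54 contrasts. The untreated value was the mean of both set means. P-values were adjusted within each contrast over the 18040 genes by the Benjamini-Hochberg method. SE is the size of the log2 fold change divided by the square root of F. The common dispersion was 0.00129, so changes of a few percent pass the test. Chi-square per degree of freedom between replicates was 1.37 to 21.86, so no pair of libraries was counted as 1. The fit was tested on simulated data.

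Named members were, by rule, the 8 largest called rises and falls for each dose at 24 h and for 3 nM at 4 h, the 5 highest and 5 lowest by mean TPM, those called in opposite directions at 3 nM and a lower dose, RPS27A, FAU, RPL5 and RPL11. Some genes that the rule names are not reported here by name. Companion genes were named when called with at least a 1.5-fold change at 24 h. Others were chosen after their values were seen. Members and lists were chosen with earlier results of these data known. Of the 12 collision and turnover genes listed, 11 were found under their symbol.

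Alternatives were either untreated set alone, other scalings, no filter, DESeq2 1.42.0, limma 3.58.1 on log2(TPM + 1) and log2(TPM + 0.1), a replicate block, a 1.2-fold minimum and leaving out each replicate. For the 1 and 4 h counts, the steps and the differences between doses they were chosen after seeing the data. No depth per gene limits a member here, the SE includes the spread between libraries, and no protein sequence is printed. Tables were joined with Python 3.11.15, pandas 2.3.3 and numpy 2.4.6, and figures drawn with matplotlib 3.10.9.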

Additional observations from a re-analysis of the deposited data

Results flagged for a closer look

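The change from 4 to 24 h differed between doses, as tested by the difference itself in edgeR's quasi-likelihood test. Set at 0.2 nM against 0.01 nM, 76 members changed by more at the higher dose and 0 by less (15.2% and 16% of all genes). RPL26 (0.67, edgeR adjusted p = 2.08e-13, SE 0.0616) and RPS18 (0.57, edgeR adjusted p = 1.17e-12, SE 0.0551) had the largest differences, and RPL13A (0.13, edgeR adjusted p = 0.0405, SE 0.0508) and RPL41 (0.13, edgeR adjusted p = 0.044, SE 0.0528) the smallest of those that passed, all on the log2 scale. Without each replicate in turn the number ran from 67 to 76.

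Set at 3 nM against 0.2 nM, 2 members changed by more at the higher dose and 15 by less (19.5% and 16.7% of all genes). Without each replicate in turn the 15 ran from 6 to 32, and with library totals in place of TMM it was 45. RPL12 (0.22, edgeR adjusted p = 0.000127, SE 0.0469) and RPL4 (0.10, edgeR adjusted p = 0.0206, SE 0.0354) were the members with a larger change, and RPL41 (-0.30, edgeR adjusted p = 4.35e-06, SE 0.0519) and RPL39 (-0.28, edgeR adjusted p = 0.000442, SE 0.0659) had the most negative differences. These doses also differ in depth, and the part of that in the differences was not tested.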

How the results depend on the processing

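Over the named members at 24 h, 898 of 920 alternative values kept their direction and their side of the threshold, 22 no longer passed it, all of them falls at 0.2 nM (RPL13A, RPS26, RPS25, RPL41 and RPL7 among them), and 0 changed direction. Counts of members depended more on the settings. Requiring at least a 1.2-fold change left 19 higher and 3 lower at 3 nM and 24 h, 9 higher and 1 lower at 0.2 nM and 1 lower at 0.01 nM. The same minimum left 28 lower at 3 nM and 26 at 0.01 nM after 1 h, and 32 at 3 nM and 2 at 0.01 nM after 4 h. It left 36 and 2 higher over the step from 8 to 16 h at 0.2 and 0.01 nM, 4 with a smaller change from 4 to 24 h at 3 than at 0.2 nM, 2 lower from 2 to 4 h at 3 nM, and 0 over the step from 16 to 24 h at each dose. Against untreated set 1 alone 24 members were higher at 0.2 nM and 24 h, and against set 2 alone 8 were lower there, and at 0.01 nM 7 were higher and 27 lower. With library totals in place of TMM, 58 were higher and 3 lower at 0.2 nM, 14 higher and 12 lower at 0.01 nM, 45 had a smaller change from 4 to 24 h at 3 than at 0.2 nM, 49 were lower from 2 to 4 h at 3 nM and 42 higher from 16 to 24 h at 0.2 nM. With no filter on low counts, 34 were higher at 0.2 nM and 20 lower at 0.01 nM from 16 to 24 h. On log2(TPM + 1) or log2(TPM + 0.1) with limma, 59 were higher and 3 lower at 0.2 nM and 16 higher and 10 lower at 0.01 nM after 24 h, 21 were lower at 3 nM after 1 h, 53 were lower from 2 to 4 h at 3 nM, and from 16 to 24 h 12 were lower at 3 nM and 17 at 0.01 nM. That scale moved the median of all genes by 0.14, 0.15 and 0.09 at 0.01, 0.2 and 3 nM after 24 h, where the members' medians were 0.00, 0.19 and 0.17. The cause was not tested.

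Leaving out 1 replicate gave 37 to 40 higher and 18 to 22 lower at 3 nM and 24 h, 23 to 50 higher and 6 to 23 lower at 0.2 nM, and 39 to 59 lower at 0.01 nM. It gave 31 to 56 higher over the step from 8 to 16 h at 0.01 nM, 6 to 32 members with a smaller change from 4 to 24 h at 3 than at 0.2 nM, 7 to 42 lower from 2 to 4 h at 3 nM, and from 16 to 24 h 9 to 31 lower at 3 nM, 0 to 44 higher at 0.2 nM and 12 to 53 lower at 0.01 nM. With the replicate number as a block, 39 were higher and 19 lower at 3 nM, 37 and 14 at 0.2 nM and 0 and 54 at 0.01 nM after 24 h, and the block moved no other count by over 1.5 times. Libraries with the same number deviated together only weakly (median r = 0.01 over 570 pairs, from -0.37 to 0.38). For different numbers the median r was -0.01 over 1140 pairs. Of 60 libraries, 33 correlated best with their own number, more than an even spread over the 3 numbers would give. The main fit did not use the numbers, and the counts with them as a block are given above. Against untreated, and over the steps within a dose, time since the addition and the drug cannot be told apart. The untreated sets differ in depth and in mitochondrial share.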
